A study of Mus musculus with 2 samples.

Results

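The D cyclins Ccnd1, Ccnd2 and Ccnd3, the kinases Cdk4 and Cdk6 and the CDK inhibitors Cdkn1a, Cdkn1b, Cdkn2b, Cdkn2c and Cdkn2d were described in total RNA of embryonic mouse limb. They are 10 of the 43346 Ensembl gene rows of the deposited tables, found by matching each identifier without its version to the listed symbols, and they hold 44 of the 103639 transcript rows. The tissue was limb of B6NCrl embryos at embryonic day 10.5 with no labelled treatment or mutation, and all samples belonged to 1 group of 2 biological replicates. Limbs of 69 embryos were pooled for replicate 1 and of 51 for replicate 2, each of both sexes. The labels name one donor entry for both pools and do not separate forelimb from hindlimb. From 10 ng of RNA longer than 200 nt per library, with spike-in RNAs added, expected counts totalled 40509328 and 43983028. Replicates here are whole pools, so the values say nothing of single embryos.

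D cyclins are made in response to growth signals and bind Cdk4 or Cdk6, and the active complexes phosphorylate the retinoblastoma protein and its relatives, which frees E2F factors to turn on genes for DNA replication. Inhibitors of the INK4 family (Cdkn2b, Cdkn2c and Cdkn2d) bind Cdk4 and Cdk6 themselves, whereas those of the Cip/Kip family (Cdkn1a and Cdkn1b) bind complexes of cyclin and kinase. In the limb bud, the mesenchyme divides while the bud grows out, and muscle and cartilage cells leave the cycle as they mature.

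Transcripts of all 8 markers of limb mesenchyme were present at 1 TPM or more in both libraries (TPM is abundance per transcript length, scaled to the same sum in each library). Over 16878 genes, chi-square per degree of freedom between the libraries was 31.2, well beyond sampling noise, and they were treated as separate replicates. The pools differed in the levels of some marker genes. Of the mesenchyme markers, the hindlimb genes Tbx4 and Pitx1 were at 19.66 and 64.98 TPM in replicate 1 and 41.14 and 126.52 in replicate 2, and the forelimb gene Tbx5 at 28.81 and 26.44. The ectoderm keratin Krt14 was at 6.69 and 26.99 TPM (these 4 genes were chosen after their values were seen). It was the only 1 of 6 ectoderm markers with more scaled counts in replicate 2, and the 6 summed to 155 and 146 TPM. The 6 muscle lineage markers summed to 32.0 TPM in replicate 1 and 83.3 in replicate 2, the 5 cartilage markers to 166 and 367, and the 5 erythroid markers to 11725 and 9550. The 6 markers of cycling cells were near equal in sum, at 1670 and 1705 TPM. Taken singly, by counts scaled as described below, 2 were higher in replicate 2 and 4 lower, each beyond counting error.

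Before the values, 3 sets of sequences are given. The transcript data bear on the Cdkn1a and Ccnd3 starts and on the Cdk4 junction, whereas Cdk4 TPM was not split by start. The first set is the window just before the annotated start of Cdk4, by far the most abundant member (RefSeq promoter table, GRCm38.p6, plus strand, chr10:127063285-127063534). Capitals mark CACGTG, the E-box letters to which Myc, Mycn and other basic helix-loop-helix factors can bind.

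Cdk4: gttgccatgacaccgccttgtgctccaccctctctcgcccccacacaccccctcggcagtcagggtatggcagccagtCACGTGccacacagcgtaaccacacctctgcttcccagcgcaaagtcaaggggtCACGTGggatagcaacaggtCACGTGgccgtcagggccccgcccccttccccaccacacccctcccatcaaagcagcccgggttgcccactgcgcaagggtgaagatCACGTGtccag

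The window holds 4 copies, of which the nearest ends 6 bases before the start. The letters read the same on both strands. Of 32851 RefSeq promoters cut to the same 250 bases, 6.02% hold at least 1 copy and 7 (0.0213%) hold 4 or more. Among the other members with an entry, Cdk6 has 1 copy and the rest none. Such a match is a description of letters, and the motifs were chosen after the sequences had been seen.

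The next set contrasts the separate annotated starts of Cdkn1a and of Ccnd3, since the transcripts took unequal shares of the gene's TPM. Both genes lie on the plus strand. Windows are chr17:29090729-29090978 and chr17:29093519-29093768 for Cdkn1a, and chr17:47504801-47505050 and chr17:47593217-47593466 for Ccnd3. Capitals mark ACATGT, which contains the core letters of the p53 binding consensus, and the GC box GGGCGG with its reverse complement CCGCCC.

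Cdkn1a upstream start: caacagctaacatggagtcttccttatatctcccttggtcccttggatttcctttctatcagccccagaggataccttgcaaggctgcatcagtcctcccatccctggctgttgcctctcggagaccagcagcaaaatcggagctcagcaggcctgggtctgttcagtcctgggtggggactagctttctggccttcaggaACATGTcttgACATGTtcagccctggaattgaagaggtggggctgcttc
Cdkn1a downstream start: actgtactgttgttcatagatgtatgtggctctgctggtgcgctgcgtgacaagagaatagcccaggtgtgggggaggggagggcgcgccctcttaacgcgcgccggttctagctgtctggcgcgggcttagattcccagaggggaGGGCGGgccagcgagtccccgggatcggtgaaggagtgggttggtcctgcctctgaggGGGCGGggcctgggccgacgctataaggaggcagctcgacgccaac
Ccnd3 upstream start: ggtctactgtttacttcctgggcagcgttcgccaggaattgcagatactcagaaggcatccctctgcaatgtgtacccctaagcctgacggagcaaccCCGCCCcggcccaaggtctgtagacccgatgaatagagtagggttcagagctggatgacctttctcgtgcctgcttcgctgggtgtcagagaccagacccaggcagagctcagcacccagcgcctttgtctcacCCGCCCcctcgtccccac
Ccnd3 downstream start: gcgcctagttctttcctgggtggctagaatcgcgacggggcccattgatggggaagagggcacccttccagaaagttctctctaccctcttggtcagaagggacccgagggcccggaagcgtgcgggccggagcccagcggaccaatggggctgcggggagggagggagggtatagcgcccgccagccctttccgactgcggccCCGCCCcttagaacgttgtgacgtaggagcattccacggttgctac

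The upstream Cdkn1a window carries 2 copies of ACATGT, at 49 to 44 and 39 to 34 bases before the start, and no GC box. At least 2 copies occur in 81 promoters (0.247%) and at least 1 in 4.58%. The downstream Cdkn1a window carries 2 GC boxes and no ACATGT. The Ccnd3 windows carry 2 GC boxes upstream and 1 downstream, all in the reverse complement. GC boxes are common letters, with at least 1 in 32.7% of promoters on either strand and at least 2 in 16.7%. Both motifs were searched on both strands and they do not overlap each other.

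The third set shows how a Cdk4 transcript that lacks exon 3 differs from the full-length one (GENCODE M21 transcripts). Lower case is the end of exon 2 and capitals the start of the exon joined to it.

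Cdk4-201, exon 2 to 3: tcccaatgttgtacgGCTGATGGATGTCTG
Cdk4-208, exon 2 to 4: tcccaatgttgtacgGATCTAATGCGTCAG

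Exon 3 spans chr10:127064585-127064720 and is 136 nt long. All 924 bases of Cdk4-208 also lie in exons of Cdk4-201, so only reads that span this junction tell Cdk4-208 from it.

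Cdk4 was far above the other members, the D cyclins came next, and Cdkn2c and Cdkn2b were at about 1 TPM or below. In both libraries 8 of 10 members reached 1 TPM, against 55.2% of 21474 protein-coding genes, and the median of the 11853 genes that did was 21.3 TPM. By mean TPM the cyclins, Cdk4, Cdk6, Cdkn1a and Cdkn2d stood above that median and Cdkn1b below it. Cdkn1a was close to it in replicate 1, at 21.75 TPM. The members below 1 TPM in at least 1 library were Cdkn2b and Cdkn2c. Values below are TPM in replicate 1 and then replicate 2, with the mean ± SD over 2 libraries.

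**Figure D1:**
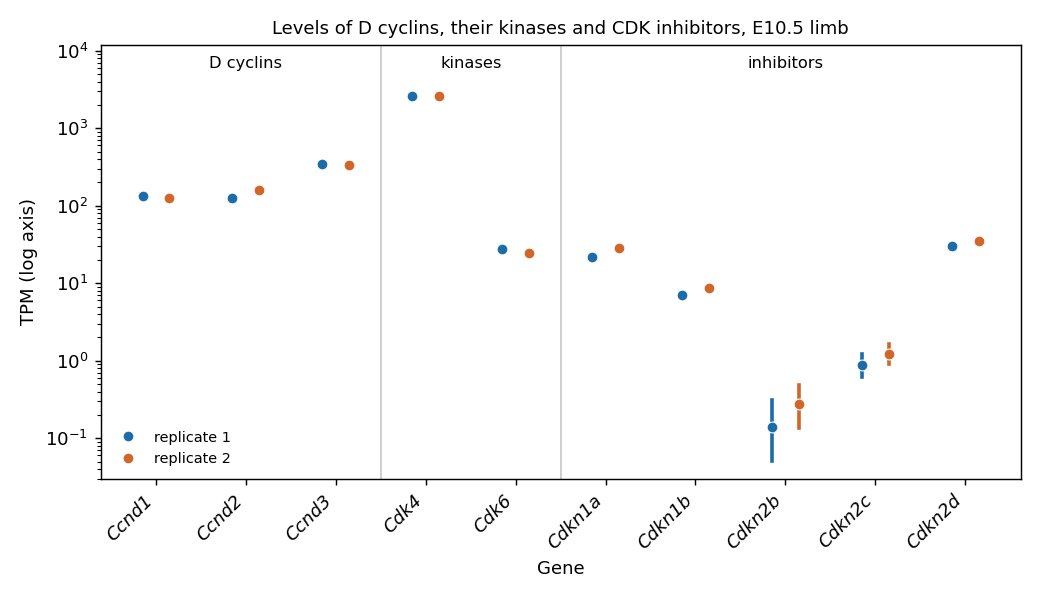
TPM of each member on a log axis, by gene and library, with the deposited interval as a vertical bar (its level is not stated in the tables). Cdk4 stands above every cyclin and Cdkn2b lies lowest; for most genes the bar is shorter than the point.

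Ccnd3 was the most abundant D cyclin (ENSMUSG00000034165.12, chromosome 17, 47505051 to 47599691, plus strand). It was at 344.76 and 340.08 TPM, or 342 ± 3.31. Ccnd2, the cyclin gene on chromosome 6 (ENSMUSG00000000184.9, 127125162 to 127152193, minus strand), was at 124.48 and 158.92, or 142 ± 24.4. Ccnd1, on chromosome 7 (ENSMUSG00000070348.4, 144929931 to 144939925, minus strand), was at 131.85 and 125.50, or 129 ± 4.49. Ccnd3 was higher than either other cyclin in both libraries. Ccnd1 was above Ccnd2 in replicate 1 and below it in replicate 2.

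Of the summed D cyclin TPM, Ccnd3 made up 57.4% and 54.5%, Ccnd1 21.9% and 20.1%, and Ccnd2 20.7% and 25.4%. A pair of genes was called apart where each library's deposited TPM intervals were disjoint, with the same gene on top. By that rule Ccnd3 was above Ccnd1 by a log2 ratio of 1.41 ± 0.04, or 2.66-fold, and above Ccnd2 by 1.28 ± 0.26, or 2.43-fold. Ccnd2 and Ccnd1 were not called apart, with log2 ratios of -0.08 and 0.34. The order of Ccnd3 and Ccnd2 rests on length normalisation. By expected counts without it, Ccnd2 was the higher, with a log2 ratio of Ccnd3 over Ccnd2 of -0.31 over both libraries.

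Cdk4 (ENSMUSG00000006728.8, chromosome 10, 127063534 to 127067920, plus strand) had the highest level of the set. It was at 2626.36 and 2625.33 TPM, or 2626 ± 0.728, and only 19 expressed protein-coding genes were higher. Cdk6, the related kinase (ENSMUSG00000040274.7, chromosome 5, 3341485 to 3531008, plus strand), was at 27.74 and 24.44, or 26.1 ± 2.33. Cdk4 exceeded Cdk6 by 94.7-fold in replicate 1 and 107-fold in replicate 2, and the pair was called apart. Cdk4 is also the member whose TPM depends most on short annotated transcripts. When all its reads were instead divided by the effective length of its longest protein-coding transcript, an alternative added after seeing the data, its level was 1046 ± 2.86 and the log2 ratio over Cdk6 fell from 6.66 to 5.33.

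Among the 5 inhibitors chosen, Cdkn2d was highest in both libraries (ENSMUSG00000096472.1, chromosome 9, 21288410 to 21291407, minus strand), at 29.89 and 35.32 TPM, or 32.6 ± 3.84. Its INK4 relatives were far lower. Cdkn2c (ENSMUSG00000028551.10, chromosome 4, 109660876 to 109667189, minus strand) was at 0.88 and 1.21, or 1.05 ± 0.23, on 43 and 64 counts. Cdkn2b (ENSMUSG00000073802.4, chromosome 4, 89306299 to 89311039, minus strand) was at 0.14 and 0.28, or 0.21 ± 0.10, on 5 and 10 counts. Cdkn2d was above Cdkn2c by a log2 ratio of 4.98 ± 0.15 and above Cdkn2b by 7.36 ± 0.54. Cdkn2c was above Cdkn2b by 2.38 ± 0.38, and all pairs of INK4 genes were called apart.

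Of the Cip/Kip genes, Cdkn1a, a target of p53 (ENSMUSG00000023067.9, chromosome 17, 29090976 to 29100727, plus strand), was at 21.75 and 28.42 TPM, or 25.1 ± 4.72. Cdkn1b, whose protein is destroyed as cells enter S phase (ENSMUSG00000003031.10, chromosome 6, 134920401 to 134925513, plus strand), was at 7.0 and 8.67, or 7.84 ± 1.18. Cdkn1a was above Cdkn1b in both libraries by a log2 ratio of 1.67 ± 0.05, or 3.19-fold, and the pair was called apart. The size of this ratio rests on length normalisation. By expected counts without it the log2 ratio was 0.16, and with reads over the longest coding transcript 1.46.

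In the order of mean TPM, 6 of the 9 neighbouring pairs were apart: Cdk4 over Ccnd3, Ccnd3 over Ccnd2, Ccnd1 over Cdkn2d, Cdkn1a over Cdkn1b, Cdkn1b over Cdkn2c and Cdkn2c over Cdkn2b. The neighbours that were not apart were Ccnd2 with Ccnd1, Cdkn2d with Cdk6 and Cdk6 with Cdkn1a, and the first and the last of these pairs swapped places between libraries. Of the 10 ratios computed, 9 were called. With reads over the longest coding transcript, and each deposited interval multiplied by the same factor as its TPM, 8 of 9 neighbours and 10 of 10 ratios were apart, Ccnd2 over Ccnd1 at a log2 ratio of 0.83 included. That scale also lowered Ccnd1 to 79.3 TPM, Cdkn1a to 12.9 and Cdkn1b to 4.67.

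Summed by role, the 3 D cyclins came to 601 and 624 TPM, Cdk4 plus Cdk6 to 2654 and 2650, and the 5 inhibitors to 59.7 and 73.9. The log2 ratio of the D cyclin sum was -2.11 ± 0.04 against the kinases and 3.21 ± 0.18 against the inhibitors. These sums count transcripts, not protein complexes, and the kinase sum was nearly all Cdk4. The inhibitor sum leaves out Cdkn1c, the remaining Cip/Kip gene, which is not among the genes chosen here and was more abundant than the 5 together. With it added, an alternative chosen after seeing the data, the inhibitors came to 256 and 441 TPM and the log2 ratio of the D cyclins over them was 1.23 and 0.50. On the coding-length scale the ratio of cyclins to kinases was -0.98.

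Between the pools, Ccnd2, Cdkn1a and Cdkn1b were higher in replicate 2 and Ccnd1, Ccnd3, Cdk4 and Cdk6 lower, all by less than 2-fold, except that Ccnd1, Ccnd3 and Cdk4 were higher once scaled to spike-in counts. These differences are log2 ratios of TMM-scaled expected counts (replicate 2 minus replicate 1) with exact binomial 95% intervals, which cover counting error only. Each pool has 1 library, so the spread within a pool is unknown and no p-value is given for these differences. None is given for the ratios between genes above either, since flipping the signs of 2 log2 values cannot bring a two-sided p below 0.5. In bulk tissue, fewer cells expressing a gene and less RNA per cell cannot be told apart.

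Of the 9 members with a mean count of 10 or more, none passed 2-fold, against a background of 6.42% of 16878 genes. The interval lay above 0 for 3 members (background 27.1%) and below 0 for 4 (background 26.2%). Genes with more reads have narrower intervals: at a mean count of 100 or more, 30.4% of genes lay above 0 and 32.8% below. The median absolute log2 difference was 0.19 over the members and 0.20 over all genes tested. The size of the members' differences was thus near that of the median gene.

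Ccnd2 had 18591 and 24730 counts and a log2 difference of 0.21 (0.19 to 0.24), the only cyclin higher in replicate 2 (with spike-in scaling all 3 were higher). Ccnd1, with 7773 and 7936 counts, was at -0.17 (-0.21 to -0.12). Ccnd3, with 17013 and 17681 counts, was at -0.14 (-0.17 to -0.11). Scaling the counts by another library factor leaves the gap between Ccnd2 and the other cyclins as it is, but not the signs.

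Cdk6 had the lowest difference of the set, with 2689 and 2468 counts and a log2 difference of -0.32 (-0.40 to -0.24). Cdk4, with 54387 and 56887 counts, was at -0.13 (-0.15 to -0.12). Both kinases were lower in replicate 2 under TMM scaling, but with spike-in scaling Cdk4 was higher and the interval of Cdk6, at -0.07, included 0. By the ratio of deposited TPM, which has no counting interval here, Cdk6 was at -0.18 and Cdk4 differed by under 0.01. The median over all genes tested was 0.15 on that scale and 0.01 under TMM scaling, so both kinases lay below the median on either.

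Cdkn1a, with 536 and 736 counts, had a log2 difference of 0.26 (0.10 to 0.42), and Cdkn1b, with 491 and 644 counts, one of 0.19 (0.02 to 0.37). The intervals of Cdkn2d, at 0.10 (-0.02 to 0.23), and of Cdkn2c, at 0.38 (-0.20 to 0.97), included 0. Cdkn2b had too few counts for the comparison. Of the 5 inhibitors, Cdkn1a and Cdkn1b thus passed in the direction of replicate 2 under TMM scaling, with no call for the others. With spike-in scaling the intervals of Cdkn2d, at 0.36, and Cdkn2c, at 0.63, also lay above 0. With total counts that of Cdkn2d, at 0.17, did so too. Of all genes tested, 51.9% had the higher value in replicate 2. In that library 5 of 6 muscle lineage markers and the 4 cartilage markers with enough counts were also higher, the cartilage gene Matn1 was at 0 counts in replicate 1 alone, and none of the 5 erythroid markers was higher. The part of cell makeup, limb type included, in these marker levels and in the members' values was not tested.

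**Figure D2:**
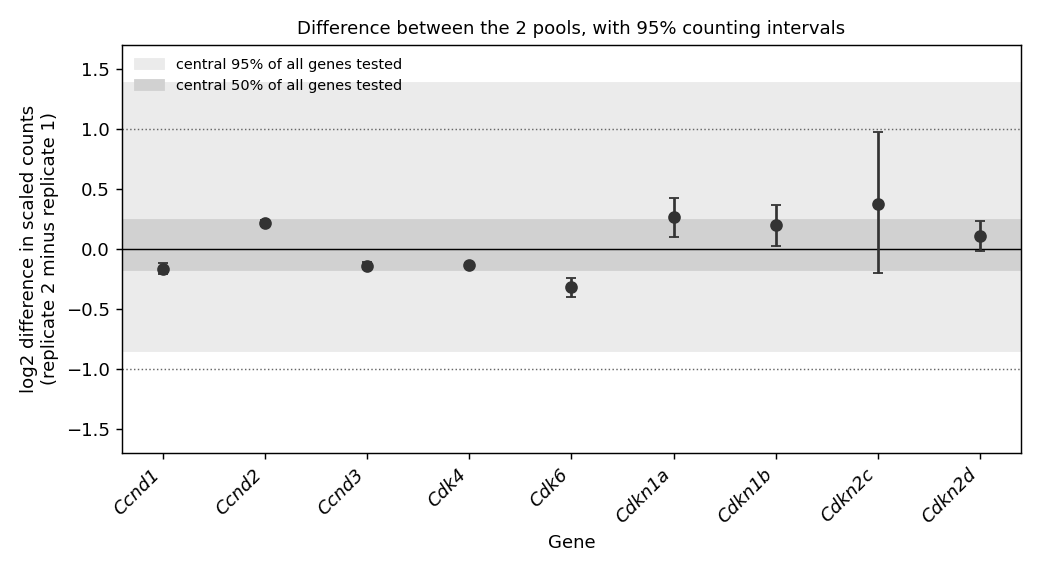
Log2 difference in TMM-scaled counts, replicate 2 minus replicate 1, for the 9 members with a mean count of 10 or more, with 95% counting intervals. Grey bands hold the central 50% and 95% of 16878 genes and dotted lines mark 2-fold; all 9 points lie inside the wide band.

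The direction of the smaller differences depends on how the libraries are scaled. Scaling to spike-in counts adds 0.25 to every log2 difference and moves the median of all genes from 0.01 to 0.27. With it, Ccnd1, Ccnd3 and Cdk4 changed sign to 0.09, 0.11 and 0.12, Cdk6 came to -0.07 with an interval that included 0, and 8 members had intervals above 0 and none below. Of all genes, 60.4% then lay above 0 and 5.98% below. With total counts, 4 members lay above 0 and 4 below, against 36.4% and 18.0% of genes. Each scaling shifts all genes alike, so the order of the members by difference stays as given.

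Cdk4 had the lowest coding share of the members. Transcripts annotated as protein-coding held 35.4% and 34.6% of its TPM (931 and 907 TPM), and 52.4% and 50.6% of its reads. The retained-intron transcript Cdk4-209, of 468 nt, took 39.9% and 39.7% of TPM. The coding Cdk4-205, of 950 nt, took 24.8% and 23.9%, and Cdk4-208, the transcript without exon 3 whose junction is printed above and which is annotated as a target of nonsense-mediated decay, took 19.3% and 19.5%. The shares were nearly equal in the libraries.

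These shares are estimates over transcripts that share most bases. Of the 468 bases of Cdk4-209, 443 lie in exons of the full-length Cdk4-201 and 25 are its own. Cdk4-201, of 2053 nt, took 9.26% and 8.76% of TPM but 23.3% and 21.9% of reads. Even the TPM of coding Cdk4 transcripts alone was above the whole TPM of Ccnd3 in both libraries.

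Ccnd1 showed a like split by length. Its coding transcript Ccnd1-201, of 3740 nt, held 56.3% and 58.3% of TPM but 92.7% and 93.2% of reads, and the rest was the retained-intron Ccnd1-202 of 470 nt, of which 375 bases lie in exons of Ccnd1-201. The coding share was 99.1% and 98.8% for Ccnd3 and 100% for the other 7 members. In all, 8 of 10 members had at least 90% of TPM in coding transcripts in both libraries, against 62.4% of expressed protein-coding genes. That count says little for Ccnd2, Cdkn2b and Cdkn2d, for which the tables list 1 transcript each, or for others with coding transcripts only.

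**Figure D3:**
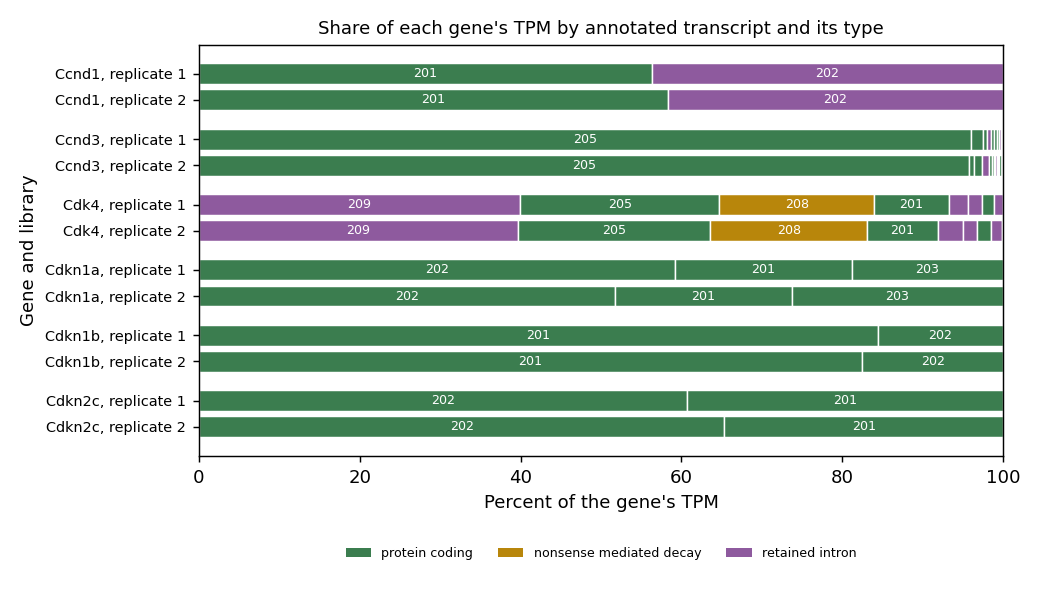
Percent of the gene's TPM taken by each annotated transcript in each library, coloured by transcript type, for 6 members; numbers in the bars are the endings of transcript names. Coding transcripts hold 35.4% and 34.6% of Cdk4 and nearly all of Ccnd3.

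At the 2 annotated starts of Ccnd3 printed above, 88416 nt apart, nearly all TPM came from the downstream one. The 3 transcripts that start there held 332 and 328 TPM, or 96.4% and 96.6%, and Ccnd3-205 alone 96.0% and 95.7%. The 13 transcripts at the upstream start held 4.52 and 7.26 TPM, or 1.31% and 2.13%. In both libraries Ccnd3 was thus assigned almost wholly to the downstream start.

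For Cdkn1a the upstream transcript Cdkn1a-202, whose start follows the window with the ACATGT pair, took 59.2% and 51.8% of TPM. Cdkn1a-201, from the start 2790 nt downstream that follows the GC boxes, took 21.9% in both libraries, and Cdkn1a-203 took 18.9% and 26.3%. By reads, Cdkn1a-201 was the higher in both libraries, at 230 and 313 against 223 and 265 for Cdkn1a-202. The lead of Cdkn1a-202 thus rests on length normalisation. The lengths of all 3 differ between the tables and M21 (748 against 922 nt for Cdkn1a-202), so the starts used by the tables may differ from those printed.

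For Cdkn2c, Cdkn2c-202 from the upstream start took 60.2% and 65.3% of TPM, on 33.7 and 52.2 reads, and Cdkn2c-201 from 1384 nt downstream had 9.29 and 11.8 reads. Both Cdkn1b transcripts begin at the same base, and Cdkn1b-201 held 84.4% and 82.5% of its TPM.

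**Figure D4:**
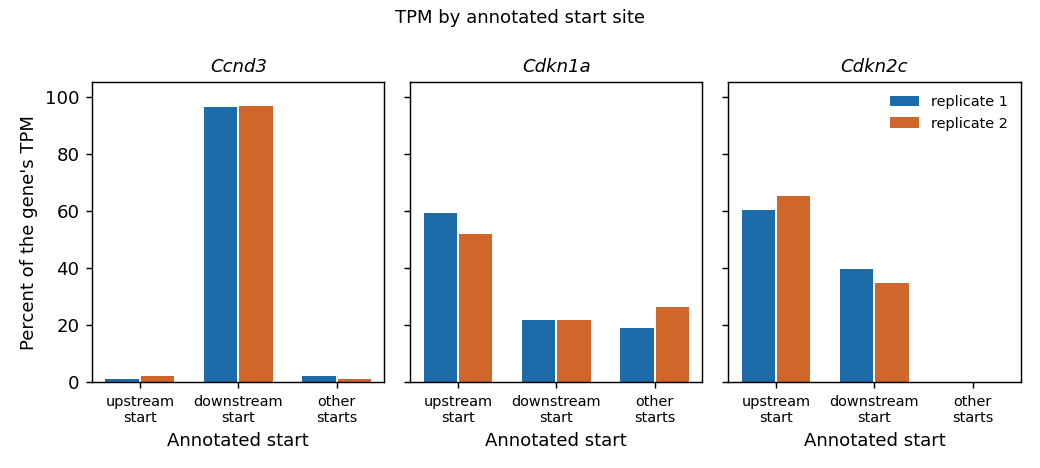
Percent of the gene's TPM by annotated start for Ccnd3, Cdkn1a and Cdkn2c, with a bar per library from 0. The downstream start of Ccnd3 holds 96.4% and 96.6%, whereas the upstream start leads by TPM in Cdkn1a and Cdkn2c. By reads the downstream start of Cdkn1a is the higher.

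Some reads of the members may belong to genes on the other strand, since whether counting used strand is not stated. Tspan31 overlaps the end of Cdk4 by 641 nt and had 4777 and 5317 counts. LTO1 overlaps Ccnd1 by 1771 nt, with 911 and 1093 counts, and Bysl overlaps Ccnd3 by 361 nt, with 4034 and 3621. The antisense gene 9330179D12Rik overlaps Ccnd2 and had 30 and 47 counts. The processed pseudogene Ccnd3-ps had 2 and 10 counts, few beside those of Ccnd3.

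Partners and targets of the D cyclin kinases were taken from a list of 33 genes of the G1 to S step. Of these, 32 were expressed in both libraries, with a median of 47.5 TPM over these 32. The exception was Cdkn2a, the remaining INK4 gene, with 0 counts in both libraries. Of the late G1 and S phase cyclins, Ccna2 was at 203 ± 1.41 TPM, Ccne1 at 147 ± 20.9 and Ccne2 at 45.1 ± 0.735, and their kinase Cdk2 at 111 ± 7.10. Ccnd3 was thus above all of these, and Cdk4 above every gene of the list.

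The pocket proteins that Cdk4 and Cdk6 phosphorylate were low beside their kinase, with Rb1 at 18.7 ± 2.21 TPM, Rbl1 at 16.8 ± 4.26 and Rbl2 at 5.38 ± 1.28. Rb1 had 343 and 449 counts and Rbl1 had 1261 and 1930, so their order by TPM rests on length normalisation. Among the E2F and DP factors they bind, Tfdp1 was highest at 165 ± 7.52, followed by E2f4 at 122 ± 9.73, and E2f2 was lowest at 5.75 ± 0.573. Cdkn1c, the Cip/Kip gene left out of the inhibitor sum above, was at 195.96 and 366.82 TPM. It was above each of the 5 inhibitors described here in both libraries. Its level lay between those of Ccnd1 and Ccnd3 in replicate 1 and above Ccnd3 in replicate 2.

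Of regulators upstream, Trp53, which encodes p53, was at 214 ± 13.3 TPM and its ubiquitin ligase Mdm2 at 49.9 ± 3.90. Mycn was at 201.25 and 128.99 and Myc at 49.46 and 36.37. Of the ubiquitin ligase parts that act on Cdkn1b, Cks1b was at 762 ± 11.4 and Skp2 at 112 ± 6.31. Fbxo4 was lowest of the expressed genes of the list, at 2.75 ± 0.085.

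Between libraries, 3 of 32 tested genes of the list had intervals above 0 (background 27.1%), 16 below (26.2%) and none passed 2-fold, with a median log2 difference of -0.09 over the list and 0.01 over all genes. The genes above 0 were Cdkn1c at 0.77 (0.73 to 0.80), Rbl1 at 0.42 (0.31 to 0.52) and Rbl2 at 0.40 (0.19 to 0.61). Among those below were Mycn at -0.78 (-0.82 to -0.74), Myc at -0.59 (-0.67 to -0.51) and Ccne1 at -0.45 (-0.49 to -0.40). These counts turn over with scaling to spike-ins, where 20 lay above 0, 5 below and 1 past 2-fold, with a list median of 0.16 against 0.27 for all genes.

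**Figure D5:**
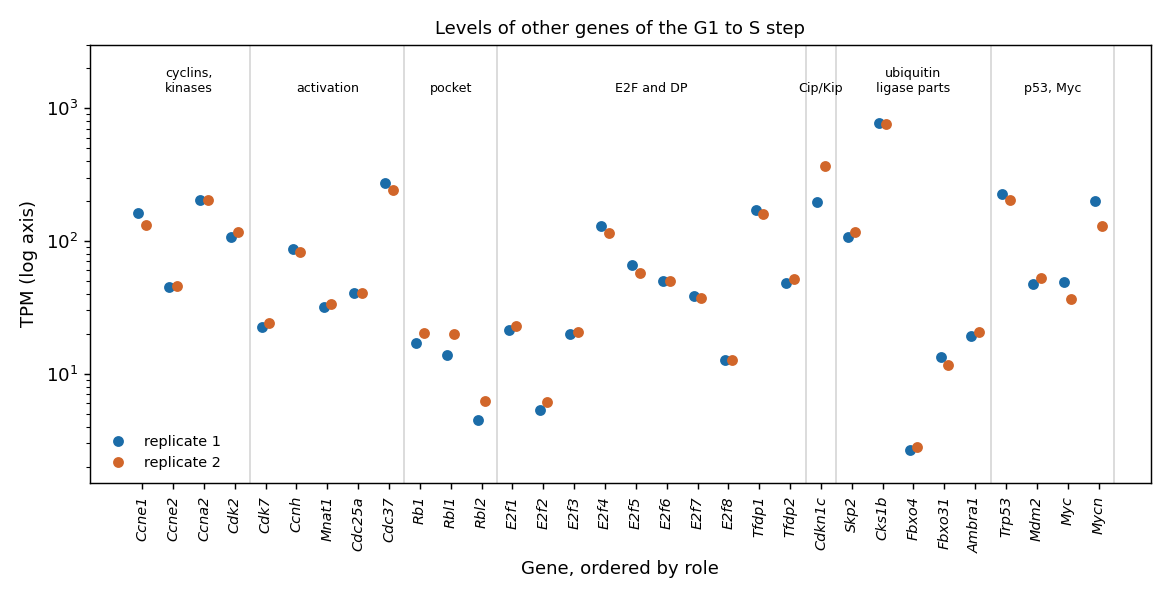
TPM on a log axis of the 32 expressed genes of the G1 to S list, ordered by role, with a point per library. Cks1b is highest and Fbxo4 lowest, and Cdkn1c is at 195.96 in replicate 1 and 366.82 in replicate 2 while Mycn is at 201.25 and 128.99.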

How the data were processed

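Total RNA of 1 group of 2 pooled limb samples was analysed. The authors deposited, per gene and per transcript, expected counts (estimated reads, which need not be whole), TPM, a posterior mean of TPM and the bounds of an interval of unstated level, and, for transcripts, the percent of the gene's TPM. Per the labels' protocols and the sample text, RNA was extracted with mirVana, a SMARTer kit manual is linked, and tables were made on mm10 with GENCODE M4. The name of the aligner or quantifier, and whether strand was used, is not given in the sources used here. In the deposited tables the effective length was the length minus 99 nt, so the TPM of short transcripts is weighted up. The intervals surround the posterior mean, so a TPM can lie outside its own interval.

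Names, types and positions came from GENCODE M21 (GRCm38). Of 44 member transcripts, 37 had the same length there. Promoters came from the RefSeq table, which matched 8 members with 11 entries. No promoter is printed for Ccnd1 or Ccnd2.

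Genes at 1 TPM or above in each library counted as expressed. Differences used expected counts rounded to whole numbers and edgeR 4.0.16 (R 4.3.3) for TMM scaling only, at a mean count of 10 or more. DESeq2 1.42.0 size factors, total counts and spike-in counts were alternatives, as were other filters, folds, posterior means and leaving out each replicate. Intervals were exact binomial at 95% and cover counting error only, since each pool has 1 library. They treat reads as independent, and no molecular identifiers mark independent molecules, so they may be too narrow even for counting error. The calculation was checked on simulated counts that held sampling noise only, which the difference between these libraries exceeds. That check covers the arithmetic and not the spread between pools. Intervals came from scipy 1.17.1 and figures from matplotlib 3.10.9, with pandas 2.3.3 and numpy 2.4.6 on Python 3.11.15. Named genes were all members, any gene of the G1 to S list and the highest and lowest of each marker list, besides those stated to be chosen otherwise. Members, lists and motifs were chosen with earlier results of these data known. The spike-in share of counts was 3.89% and 3.45%.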

Additional observations from a re-analysis of the deposited data

How the results depend on the processing

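With 2 libraries there is no replicate of either pool, so pool, library and batch cannot be told apart. Scaling to spike-in counts moved most: 1 member, Cdkn2b, then passed 2-fold, 8 members had intervals above 0 and 0 below, and Ccnd1, Ccnd3 and Cdk4 reversed to log2 differences of 0.086, 0.11 and 0.12. Of all genes at the count minimum, 8.37% then passed 2-fold, 60.4% lay above 0 and 5.98% below. By deposited TPM 1 member reached 2-fold, Cdkn2b at 0.14 and 0.28 TPM, and 7.69% of those genes did. Cdkn2b is itself below the count minimum, so neither share is a background for it. At 1.5-fold 1 member passed, again Cdkn2b, on 5 and 10 counts, which is below the count minimum of the main comparison. Of all genes, 15.5% passed 1.5-fold at that minimum and 34.3% with no filter on low counts. The share of all genes past 2-fold was 24.4% with no filter on low counts and 1.65% at a mean count of 100 or more. Ccnd2 over Ccnd1 was 0.34 without replicate 1 and -0.083 without replicate 2, and Ccnd3 over Ccnd2 was -0.31 by expected counts without length. Leaving out either replicate gave 7 to 9 neighbouring pairs apart and 9 to 10 ratios called. A ratio called in both libraries is called in each by rule, so no ratio could lose its call there. Over all settings, 119 values of single genes or ratios counted as unchanged and 11 moved by more than the spread between libraries. A further 5 gained a call, 1 lost one and 5 changed sign. Many of the 119 could not change, since a level in 1 replicate always lies within 1 SD of the mean of 2. Expected counts without length and deposited TPM were judged by sign alone. Cdkn1a over Cdkn1b fell from 1.67 to 0.16 without length and still counted as unchanged. The low depth of Cdkn2b and Cdkn2c limits what can be said of their differences. No paired analysis was possible because there is 1 group.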

Other observations

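In the RefSeq windows not printed, GC content ran from 42.8% at the downstream start of Cdkn2c to 77.2% at its upstream start. The GC box count was 3 at the upstream start of Cdkn2c, 3 for Cdkn2d, 1 for Cdkn1b and 0 for Cdk6, Cdkn2b and the downstream start of Cdkn2c. At least 3 copies occur in 8.47% of promoters. The Cdkn2c start with the GC-rich window is the one that held the larger share of its TPM, on few reads.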
